A study of Homo sapiens with 8 samples.

Results

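The 43 genes described here act in the repair of crosslinked, broken or mispaired DNA, the pathways that meet the lesions made by busulfan, an alkylating drug that joins DNA bases to each other. They were taken as a fixed list of symbols, drawn up with earlier results of these libraries known, and all 43 were found among the 58735 Ensembl gene IDs of the count files. The list holds 8 genes of the Fanconi core complex, 3 of its ubiquitination step, 10 of homologous recombination, 6 helicases and structure-specific nucleases, 6 mismatch repair genes, 5 of direct reversal and base excision, 1 translesion polymerase and 4 damage signalling kinases. The cells were MOLM-13, a line from an acute myeloid leukemia that grows in suspension, in a study of how such cells become resistant to busulfan. Its vehicle cultures, analysed here, had gone through 1, 3 or 5 treatment courses with 1% DMSO and never met the drug. They were set against parental MOLM-13 cells, which had 0 courses. Each of these 4 states is 1 bulk RNA-seq library (parental replicate 2 and DMSO courses 1, 3 and 5), so no state has a replicate. The libraries of busulfan-treated cells and a further parental library were not used here. The labels cap the parental cells at 20 passages and give no passage number for the DMSO cultures, so the number of courses and time in culture cannot be told apart.

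A crosslink between the strands stops the replication fork. The Fanconi core complex, an E3 ubiquitin ligase, then works with its E2 partner to mark the FANCD2-FANCI pair, which brings in nucleases that cut the crosslink out, a polymerase that copies past the remnant, and the recombination proteins that mend the resulting break. Mismatch repair corrects mispaired bases and also reads some alkylated bases, base excision and direct reversal remove single altered bases, and the ATM and ATR kinases signal breaks and stalled forks to the checkpoint. Transcription of many of these genes rises when a cell enters S phase, so their RNA in a culture follows how many cells are cycling as well as how much each cell makes. In bulk RNA a smaller share of cells in S phase and less RNA per cell cannot be told apart.

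The libraries held 44795976 to 56825811 counts in genes. Myeloid markers summed to 3184 to 4371 CPM (counts scaled to library size, with TMM), though CD14 was the 1 of 9 under 1 CPM throughout. Lymphoid markers summed to 0.378 to 5.93 CPM and erythroid markers to at most 0.0232 CPM, with 3 of 5 at 0 counts. Epithelial and stromal markers summed to 43.4, 22.9, 12.6 and 10.5 CPM at 0, 1, 3 and 5 courses, and their part in the results was not tested. DMSO course 5 stood apart in 2 technical shares, with 21.3% of its reads aligned to several places, against 13.9% in parental cells, and 9.22% of its gene counts from the mitochondrial genome, against 13.6% in parental cells.

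The promoters of these genes are shown first, since factors of the E2F family, which bind promoters at the G1/S transition, are known to drive many of them. RefSeq (GRCh38.p14) gave a promoter for 41 of the 43 genes, all but FANCI and WRN. The window searched on both strands ran from 250 bases before to 50 bases after the start. The letters TTTCCCGC, TTTCGCGC, TTTGCCGC or TTTGGCGC, common forms of the E2F site, stood in a window of 9 of the 41 genes (22.0%). Of the 27305 genes of the promoter table, which was not limited to genes expressed in these cells, 3.99% held them. The 2 matches of MSH3 overlap each other. Of the 18 genes that were lower than parental in all 3 DMSO libraries and have a promoter, 5 hold such letters (27.8%), and of the other 23, 4 do (17.4%). TTTGAA, the core of the CHR element of cell cycle genes, was found in 6 of 41 (14.6%, against 18.2% of all genes), and CCAAT in 21 of 41 (51.2%, against 39.7% of all genes). A match is a string of letters in a window and not a measured binding site.
The 5 genes with E2F letters that were lower in all 3 DMSO libraries are printed below. REV3L, which holds such letters and was higher after 5 courses, and ATM, which lacks them and was higher after every course, follow. PMS2, not printed, also holds E2F letters and was higher in all 3 DMSO libraries. FANCC and MSH3, not printed either, hold them too, with log2 ratios to parental of 0.34 and 0.36 in course 5. Thus all 4 other genes with E2F letters were above parental in course 5. Each run covers 220 bases before the start and 30 from it, read 5′ to 3′ on the gene's strand, in GRCh38.p14 coordinates. Capitals mark the E2F letters, on either strand, and the TTTGAA of ATM.
FANCA (chr16:89816618-89816867, minus strand): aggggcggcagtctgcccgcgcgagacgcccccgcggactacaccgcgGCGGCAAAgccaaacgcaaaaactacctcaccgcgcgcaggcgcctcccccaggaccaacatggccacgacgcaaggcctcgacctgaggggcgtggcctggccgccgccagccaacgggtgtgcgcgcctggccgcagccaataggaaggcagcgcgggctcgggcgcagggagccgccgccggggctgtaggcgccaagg
FANCD2 (chr3:10026217-10026466, plus strand): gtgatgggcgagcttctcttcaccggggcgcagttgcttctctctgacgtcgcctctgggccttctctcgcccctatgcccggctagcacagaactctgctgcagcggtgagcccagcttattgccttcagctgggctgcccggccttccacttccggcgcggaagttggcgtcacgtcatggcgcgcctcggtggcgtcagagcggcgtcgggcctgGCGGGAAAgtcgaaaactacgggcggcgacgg
EXO1 (chr1:241847984-241848233, plus strand): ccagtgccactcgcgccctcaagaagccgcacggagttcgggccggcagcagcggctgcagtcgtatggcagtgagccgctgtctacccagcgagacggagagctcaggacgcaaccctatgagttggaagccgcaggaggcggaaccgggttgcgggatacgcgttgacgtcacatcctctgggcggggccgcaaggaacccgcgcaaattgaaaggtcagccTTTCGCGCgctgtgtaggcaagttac
XRCC2 (chr7:152676112-152676361, minus strand): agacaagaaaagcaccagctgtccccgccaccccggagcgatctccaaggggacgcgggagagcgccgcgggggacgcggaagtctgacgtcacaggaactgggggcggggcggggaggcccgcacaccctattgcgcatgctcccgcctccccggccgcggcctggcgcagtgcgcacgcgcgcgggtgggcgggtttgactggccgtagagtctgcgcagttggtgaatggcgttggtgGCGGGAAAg
MSH6 (chr2:47782925-47783174, plus strand): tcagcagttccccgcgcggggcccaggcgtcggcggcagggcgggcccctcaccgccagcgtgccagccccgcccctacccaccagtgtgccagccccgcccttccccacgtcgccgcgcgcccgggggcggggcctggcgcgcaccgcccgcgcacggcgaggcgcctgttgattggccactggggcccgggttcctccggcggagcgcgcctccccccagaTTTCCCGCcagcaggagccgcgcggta
REV3L (chr6:111483189-111483438, minus strand): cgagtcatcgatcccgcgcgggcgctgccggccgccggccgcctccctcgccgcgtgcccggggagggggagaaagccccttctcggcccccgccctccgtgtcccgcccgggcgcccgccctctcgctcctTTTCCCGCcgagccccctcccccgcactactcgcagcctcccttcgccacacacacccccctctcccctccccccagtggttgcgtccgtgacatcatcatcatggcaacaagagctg
ATM (chr11:108222847-108223096, plus strand): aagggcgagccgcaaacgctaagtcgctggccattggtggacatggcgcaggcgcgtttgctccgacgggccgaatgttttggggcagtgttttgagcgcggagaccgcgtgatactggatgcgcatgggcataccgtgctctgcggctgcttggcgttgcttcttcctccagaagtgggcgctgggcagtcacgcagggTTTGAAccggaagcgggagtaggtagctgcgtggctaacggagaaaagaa
In FANCD2 the match lies across the start that RefSeq gives, from base -2 to base 6, though the bases just after that start stood as 1 unbroken run in no GENCODE transcript of the gene, and in EXO1, MSH6 and XRCC2 it begins at base 5, 4 and 22, with the start as base 1. In FANCA it lies farther upstream, from -172 to -165.

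Levels of different genes were compared as TPM (counts per length of exon, scaled to a common total in each library). APEX1, the endonuclease of base excision, had the highest mean at 360.3 TPM. The glycosylase gene MPG, the nuclease subunit gene ERCC1 and PARP1 followed at 95.4, 93.8 and 89.8 TPM. The lowest means were 3.03 TPM for the core complex gene FANCC, 3.38 TPM for ERCC4 and 3.71 TPM for FANCB. These ranks depend on the lengths. FANCC has 12809 exon bases, and its mean of 14.5 CPM was above the 10.6 CPM of ERCC4 and the 4.98 CPM of FANCB. Every gene was counted in all 4 libraries, and 42 of 43 averaged at least 5 CPM. FANCB, at a mean of 4.98 CPM, lay just under that level and is left out of the counts of genes below.

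**Figure D1:**
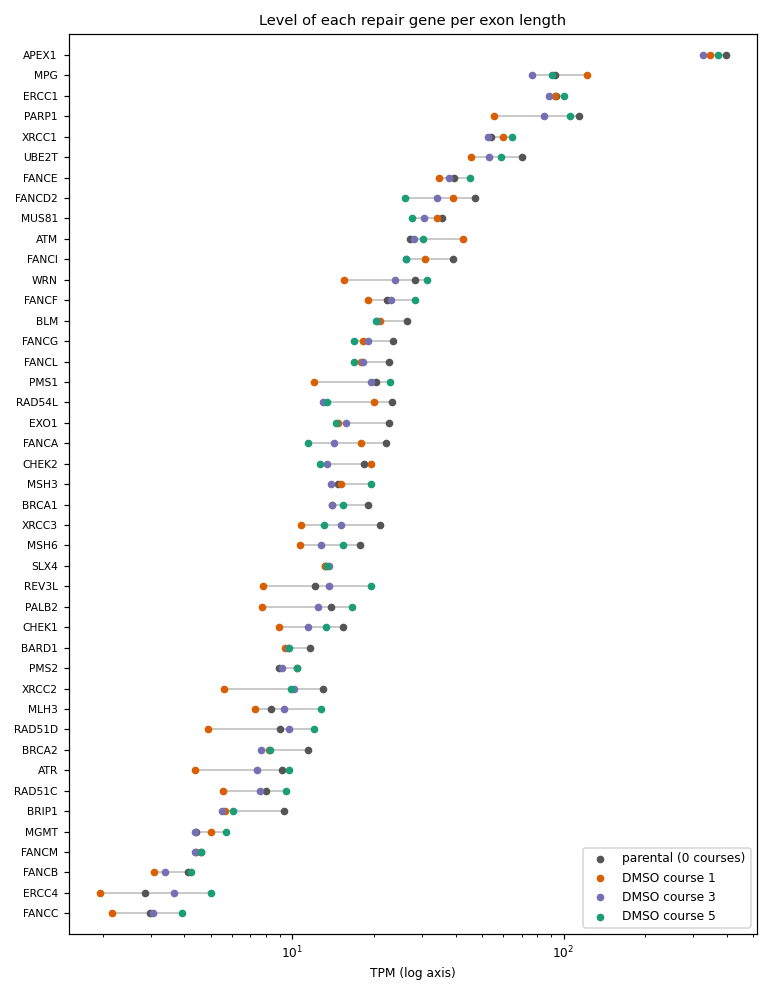
Level of each of the 43 repair genes in TPM (log axis), per length of all annotated exons. Each library is 1 point, and genes are ordered by their mean. The line joins the lowest and highest library. The genes run from FANCC at 3.03 TPM to APEX1 at 360.3 TPM, and the widest lines are those of ERCC4, REV3L and RAD51D.

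Several genes that work in pairs differed in level. The size of each ratio depends on the exon lengths used, while its change between courses does not. ERCC1 stood above ERCC4, the catalytic subunit of the same nuclease, with ratios of their TPM of 32.8, 47.7, 24.0 and 20.0 at 0, 1, 3 and 5 courses. Of the related kinases, ATM exceeded ATR in each library, with TPM ratios of 2.97, 9.73, 3.79 and 3.11 at 0, 1, 3 and 5 courses. Course 1 was the library in which both pairs lay farthest apart. FANCD2 and FANCI, which form the ubiquitinated pair, stayed near equal, at ratios of 1.21, 1.27, 1.31 and 0.991. BRCA1 and its partner BARD1 kept ratios between 1.45 and 1.64. BRCA2 and PALB2, which binds it, moved apart, with BRCA2 over PALB2 at 0.827, 1.06, 0.618 and 0.50 at 0, 1, 3 and 5 courses.

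No repair gene passed either test across the 4 libraries. In the pooled comparison the 3 DMSO libraries formed 1 arm and parental cells the other, tested by quasi-likelihood in edgeR over 18612 genes, with Benjamini-Hochberg adjusted p under 0.05 as the threshold. It called 0 of the 43 repair genes, beside 0.0% of all genes in either direction, and 1 of the 43 had an unadjusted p under 0.05 (1045 of all genes did). That gene was BRIP1, a helicase of recombination, with a log2 fold change of -0.64 (SE 0.23) and an adjusted p of 0.859. A slope over 0, 1, 3 and 5 courses also called 0 repair genes, with 0.0% of all genes called. Of the 43, 7 had an unadjusted p under 0.05, a share near that of all genes (2940 of 18612). These 7 repair genes were FANCA, FANCD2, RAD54L, FANCI and CHEK2 with negative slopes and MLH3 and ERCC4 with positive ones. The smallest adjusted p of the slope was 0.191, for FANCA, at -0.19 log2 per course (SE 0.04). limma-voom called 0 genes in both comparisons, while DESeq2's Wald test called 211 genes in the pooled comparison (0.559% higher, 0.575% lower) and none was a repair gene. For the slope it called 880 genes (1.23% higher, 3.5% lower), with FANCA as the only repair gene.

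**Figure D2:**
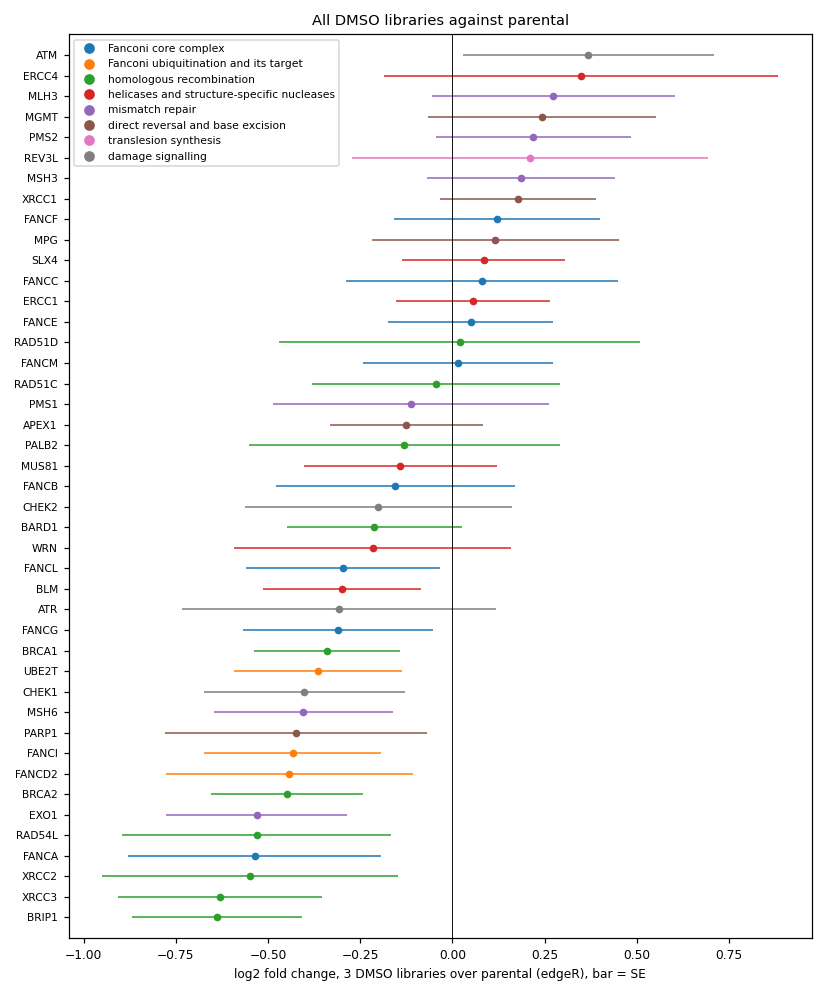
Pooled log2 fold change of the 3 DMSO libraries over the parental library for each repair gene, with its standard error (edgeR), coloured by group. BRIP1 at -0.64 and ATM at 0.37 are the ends of the range, and no gene passed the test.

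The calls depended on single libraries. Without DMSO course 1 the pooled comparison called 1578 genes (3.4% of genes tested higher, 5.19% lower), among them RAD54L, which was lower. The slope without course 1 called 2795 genes (6.73% higher, 8.48% lower). Its repair genes were REV3L, which was higher, and RAD54L, XRCC3, FANCI, FANCD2, EXO1 and FANCA, which were lower. Without the parental library the slope over courses 1, 3 and 5 called 3642 genes (9.77% higher, 13.6% lower), with REV3L, PALB2, PARP1, WRN, ATR, ERCC4 and RAD51D rising and FANCD2, ATM, CHEK2 and FANCA falling. Each of these fits had 1 residual degree of freedom. In both slope fits the share of repair genes called was near that of all genes.

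The direction of each gene was read, without a test, from ratios of single libraries, whose exact binomial 95% intervals hold counting error alone. Of the 42 genes, 19 were lower than parental in all 3 DMSO libraries with every interval excluding a ratio of 1 (45.2%, against 15.2% of the 10710 genes of at least 5 CPM). All 3 ratios are taken to the same parental library, so their agreement is not that of independent comparisons. These were FANCA, FANCG, FANCL, UBE2T, FANCD2, FANCI, BRCA1, BRCA2, BRIP1, BARD1, RAD54L, XRCC2, XRCC3, BLM, MSH6, EXO1, PARP1, APEX1 and CHEK1. Only PMS2, XRCC1 and ATM were higher in all 3 (7.14%, against 18.6% of all genes of that level), and ATM was the 1 of them still so when library totals were used with no TMM scaling. By order of level, 7 genes were in strictly falling order over 0, 1, 3 and 5 courses (16.7%, against 6.26% of all genes of that level): FANCA, FANCD2, FANCI, BRCA2, BRIP1, RAD54L and BLM. No repair gene was in strictly rising order (9.41% of all genes of that level were). Course 1 was the lowest of the 4 libraries for 18 genes (42.9%, against 35.9% of all genes of that level), course 5 for 16 (38.1%, against 29.6%), parental cells for 6 (14.3%, against 26.3%) and course 3 for 2 (4.76%, against 8.24%). Parental cells were the highest for 19 of the 42 genes (45.2%, against 22.0% of all genes of that level).
Differences of at least 2-fold were rare. XRCC2 was so much lower in course 1 (4.19% of all genes of at least 5 CPM were) and FANCA in course 5 (4.92% of all were), though FANCA lay just under 2-fold with RLE scaling and 3 genes were past 2-fold in course 1 on library totals with no TMM scaling. No repair gene was 2-fold lower in course 3 (2.34% of all were), and none was 2-fold higher in course 1, 3 or 5 (3.7%, 2.23% and 2.96% of all were).

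**Figure D3:**
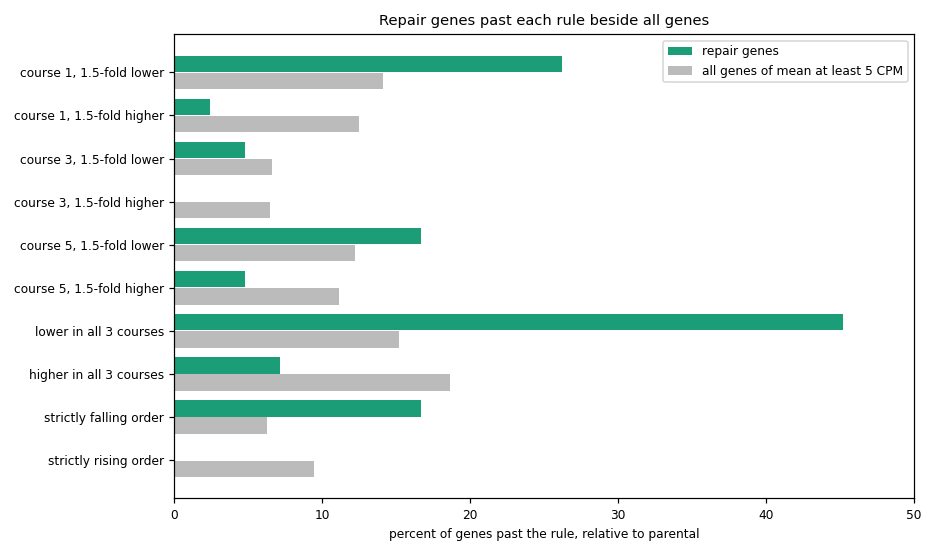
Percent of the repair genes (green, 42 genes) and of all genes of at least 5 CPM (grey, 10710 genes) past each rule, set against parental cells. The bars for genes lower in all 3 courses stand at 45.2% for repair genes and 15.2% for all genes.

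In the Fanconi core complex 3 of the 7 genes of at least 5 CPM were lower than parental in every DMSO library (42.9%, beside the 15.2% of all genes). These were FANCA and FANCG, which bind each other, and FANCL, the subunit that carries the ligase activity. FANCC, FANCE and FANCF, which form a module of their own, each lay below parental in course 1, FANCE within an interval that held a ratio of 1, and above it in course 5. FANCA (ENSG00000187741) had 78.5, 68.0, 55.1 and 39.2 CPM at 0, 1, 3 and 5 courses, from 4644, 2931, 2767 and 1788 counts. Its level was lower at each further course, and its log2 ratios to parental were -0.21, -0.51 and -1.0 in courses 1, 3 and 5 (interval in course 5 -1.08 to -0.92). Its pooled log2 fold change was -0.54 (SE 0.34, adjusted p = 0.954, edgeR). The gene on the opposite strand that overlaps its exons, ZNF276, also had its lowest level in course 5, with 109.7, 101, 89.0 and 71.2 CPM at 0, 1, 3 and 5 courses. Whether reads were assigned by strand is known only from the deposited files' names, and the part of the overlap in FANCA was not tested.

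FANCG had 30.8, 25.6, 27.5 and 21.5 CPM at 0, 1, 3 and 5 courses, and FANCL had 19.9, 16.9, 17.5 and 14.4 CPM. Both were lowest in course 5, with log2 ratios of -0.52 (-0.64 to -0.41) for FANCG and -0.47 (-0.61 to -0.33) for FANCL. FANCC stood at 13.9, 10.8, 15.6 and 17.6 CPM and FANCF at 24.1, 21.9, 27.3 and 29.3 CPM at 0, 1, 3 and 5 courses. Each was lowest in course 1 and highest in course 5, where the log2 ratios were 0.34 (0.20 to 0.49) for FANCC and 0.29 (0.18 to 0.39) for FANCF. FANCE followed them in a narrower range, with log2 ratios of -0.08, 0.07 and 0.14 in courses 1, 3 and 5. FANCM, the translocase that anchors the complex on DNA, stayed between 13.8 and 14.7 CPM in all 4 libraries, and all 3 of its intervals held a ratio of 1. FANCB, which sits in 1 module with FANCL, ran from 4.34 CPM in course 1 to 5.39 CPM in parental cells, and its intervals held 1 in courses 3 and 5.

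The ubiquitination step was lower in every DMSO library for all 3 of its genes, where 15.2% of all genes were. FANCD2 (ENSG00000144554), a target of the core complex, had 144, 127, 114 and 76.6 CPM at 0, 1, 3 and 5 courses. FANCI, its partner, had 110.4, 92.9, 80.8 and 71.6 CPM. Both were lower at each further course, and the step from course 3 to course 5 was the larger for FANCD2, whose log2 ratio to parental was -0.18, -0.34 and -0.91 in courses 1, 3 and 5, against -0.25, -0.45 and -0.62 for FANCI. UBE2T, the E2 enzyme that supplies the ubiquitin, did not follow that order. It had 42.2, 29.3, 34.8 and 34.2 CPM at 0, 1, 3 and 5 courses and was lowest in course 1, with a log2 ratio of -0.53 (-0.63 to -0.43). In edgeR's pooled test the log2 fold changes were -0.44 (SE 0.34) for FANCD2, -0.43 (SE 0.24) for FANCI and -0.36 (SE 0.23) for UBE2T, with adjusted p of 0.962, 0.929 and 0.946. POLG, which overlaps FANCI on the opposite strand, had 91.3, 68.7, 95.4 and 99.9 CPM at 0, 1, 3 and 5 courses, and its part in FANCI was not tested.

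Among the 10 recombination genes, every one was below parental in course 1 with an interval that left out a ratio of 1 (40.4% of all genes of at least 5 CPM were), and 7 were below it in all 3 DMSO libraries (70.0%, against 15.2%). BRIP1, the helicase that binds BRCA1, kept 1 level across the courses, at 27.0, 17.6, 17.5 and 17.0 CPM at 0, 1, 3 and 5 courses. Its log2 ratios of -0.62, -0.63 and -0.67 differed by less than the width of their counting intervals. RAD54L, a motor protein that moves along DNA during recombination, had 27.3, 25.1, 16.5 and 15.1 CPM at 0, 1, 3 and 5 courses. It was near the parental level after 1 course and lower later, with log2 ratios of -0.12, -0.72 and -0.85 in courses 1, 3 and 5. BRIP1 and RAD54L were the 2 genes at least 1.5-fold lower in course 3 (6.57% of all genes of at least 5 CPM were), and none was 1.5-fold higher there (6.49% of all were).

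XRCC2, XRCC3, RAD51C and RAD51D, which are related in sequence and act early in recombination, were at their lowest in course 1. XRCC2 had 23.0, 10.6, 19.7 and 16.9 CPM at 0, 1, 3 and 5 courses, and its log2 ratio of -1.12 in course 1 (-1.28 to -0.97) was the lowest of any repair gene there. XRCC3 had 57.4, 31.5, 45.1 and 34.6 CPM and was below parental in each DMSO library. KLC1, which overlaps it on the opposite strand, had 40.03, 61.0, 43.9 and 37.8 CPM. In the edgeR pooled test XRCC3 stood at -0.63 (SE 0.28, adjusted p = 0.928) and XRCC2 at -0.55 (SE 0.40, adjusted p = 0.959). RAD51D and RAD51C parted from these 2 in the late courses. RAD51D had 37.2, 21.5, 43.7 and 47.9 CPM at 0, 1, 3 and 5 courses, and RAD51C had 17.7, 13.2, 18.3 and 20.1 CPM. Both were below parental in course 1 and above it in course 5, with log2 ratios there of 0.37 (0.28 to 0.45) for RAD51D and 0.18 (0.05 to 0.31) for RAD51C. RAD51D shares exons with a readthrough gene on its own strand that was counted at 0. The counting tool set 1.84% to 1.96% of reads aside as ambiguous between genes. How many of these came from RAD51D is not known, so its level is uncertain.

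BRCA1, a ligase and scaffold at breaks, had 63.5, 50.1, 51.1 and 49.5 CPM at 0, 1, 3 and 5 courses, and BRCA2, which acts in recombination at those breaks, had 51.2, 39.1, 37.5 and 35.8 CPM. Both were lower from course 1 on, with log2 ratios in course 5 of -0.36 (-0.44 to -0.29) for BRCA1 and -0.51 (-0.60 to -0.43) for BRCA2. AC060780.1, a noncoding gene that overlaps exons of BRCA1 on the same strand, had 21.4, 18.5, 16.7 and 14.3 CPM at 0, 1, 3 and 5 courses. Its part in the level of BRCA1 was not tested. BARD1 lay closer to parental, at log2 ratios of -0.20, -0.13 and -0.30 in courses 1, 3 and 5. PALB2, which joins BRCA1 to BRCA2, had 23.9, 14.3, 23.5 and 27.7 CPM at 0, 1, 3 and 5 courses. It was thus low in course 1 alone and above parental in course 5, at 0.21 (0.10 to 0.32).

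The helicases and nucleases gave no common direction. BLM, the helicase that dissolves crossed recombination intermediates, was the 1 gene of these 6 below parental in all 3 (15.2% of all genes were), at 64.4, 54.7, 54.6 and 47.7 CPM at 0, 1, 3 and 5 courses. WRN, a related helicase, had 58.1, 34.1, 53.9 and 62.0 CPM and was low in course 1, at a log2 ratio of -0.77 (-0.86 to -0.68), and at -0.11 and 0.09 in courses 3 and 5. ERCC4, the cutting subunit of the ERCC1 nuclease, had 8.82, 6.43, 12.4 and 14.9 CPM at 0, 1, 3 and 5 courses. It was the most variable of the 43 genes, at 2.32-fold between its lowest and highest library, while ERCC1, at 190.5, 201.9, 195.5 and 196.7 CPM, varied by 1.06-fold. ERCC4 lay at least 1.5-fold above parental in course 5, with a log2 ratio of 0.76 (0.59 to 0.93) from 680 counts in course 5, against 522 counts in parental cells. edgeR's pooled log2 fold changes were 0.35 (SE 0.53) for ERCC4, -0.30 (SE 0.21) for BLM and -0.22 (SE 0.37) for WRN, with adjusted p of 0.996, 0.957 and 0.999. SLX4, the scaffold that holds the nucleases, stayed within log2 ratios of -0.03 to 0.18. MUS81, a nuclease of stalled forks, was at 70.9, 73.1, 66.8 and 53.2 CPM at 0, 1, 3 and 5 courses, and 2 genes overlap it on the opposite strand. CFL1 had 498.5, 245.9, 339.6 and 361.7 CPM, and EFEMP2, at 31.3, 59.5, 11.5 and 4.76 CPM, had the same order of libraries as MUS81.

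Of the 6 mismatch repair genes, EXO1 and MSH6 were below parental in all 3 DMSO libraries (33.3%, against 15.2% of all genes). MLH3 and PMS2 were above it in both course 3 and course 5 (33.3%, against 33.7% of all genes), a share near that of all genes. The ratios of MSH3 and PMS1 were above 1 in those courses too, but their intervals in course 3 held 1. EXO1, the exonuclease that removes the mispaired strand, had 34.1, 23.8, 26.0 and 21.0 CPM at 0, 1, 3 and 5 courses, with log2 ratios of -0.52, -0.39 and -0.70 in courses 1, 3 and 5. MSH6, which recognises single mispairs, had 70.9, 45.6, 56.0 and 59.2 CPM and came back toward the parental level in the later courses. MSH3, which recognises larger loops, was at 25.2, 27.6, 26.1 and 32.3 CPM at 0, 1, 3 and 5 courses. The TPM ratio of MSH6 over MSH3, which compete for the same partner protein, was 1.21, 0.707, 0.917 and 0.785 at 0, 1, 3 and 5 courses. That ratio rests on 10993 annotated exon bases for MSH6 and 4709 for MSH3. In CPM, which is not scaled by length, MSH6 was above MSH3 in every library. MLH3, which acts in mismatch repair and in meiosis, stood at 25.4, 23.7, 30.9 and 37.4 CPM, and its log2 ratio in course 5 was 0.56 (0.46 to 0.66). In the pooled edgeR test EXO1 stood at -0.53 (SE 0.25), MSH6 at -0.40 (SE 0.24) and MLH3 at 0.27 (SE 0.33), with adjusted p of 0.928, 0.943 and 0.991. PMS1 was low in course 1, at a log2 ratio of -0.66 (-0.77 to -0.56), and at 0.07 and 0.13 in courses 3 and 5. PMS2, the nuclease subunit of the main MutL pair, had 12.8, 15.9, 14.3 and 14.4 CPM. Its value is uncertain, since near copies such as PMS2CL and PMS2P1 were counted too, at 6.06 to 9.70 CPM and 6.03 to 13.1 CPM.

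Of the direct reversal and base excision genes, PARP1, which binds strand breaks, was farthest from parental in course 1. It had 296, 155, 242 and 266 CPM at 0, 1, 3 and 5 courses, a log2 ratio of -0.94 (-0.98 to -0.90) in course 1 and of -0.16 (-0.19 to -0.12) in course 5. XRCC1, the scaffold of single-strand break repair, was above parental in each DMSO library, at 68.1, 80.3, 72.8 and 78.2 CPM. MGMT, which removes alkyl groups from guanine, was counted at a low level of 5.70, 6.94, 6.19 and 7.11 CPM, from 299 to 337 counts, and its interval in course 3 held a ratio of 1. None of the 3 passed the edgeR pooled test, at log2 fold changes of -0.42 (SE 0.35), 0.18 (SE 0.21) and 0.24 (SE 0.31) and adjusted p of 0.970, 0.989 and 0.991. MPG, the glycosylase that removes alkylated purines, was high in course 1 alone, at 56.0, 78.7, 50.5 and 53.0 CPM at 0, 1, 3 and 5 courses. APEX1 stayed between 246 and 271 CPM, below parental by log2 ratios of -0.09, -0.14 and -0.14.

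REV3L, the catalytic subunit of the polymerase that copies past a cut crosslink, had 54.9, 37.6, 67.7 and 85.1 CPM at 0, 1, 3 and 5 courses. It was below parental in course 1, at a log2 ratio of -0.54 (-0.63 to -0.46), and at least 1.5-fold above it in course 5, at 0.63 (0.57 to 0.70). REV3L and ERCC4 were the 2 genes so much higher in course 5, while 11.1% of all genes of at least 5 CPM were. The pooled log2 fold change of REV3L was 0.21 (SE 0.48, adjusted p = 0.999, edgeR), and its sign turned without course 5, at -0.060.

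The damage kinases were furthest apart in course 1. ATM, which answers to double-strand breaks, had 237, 396, 268 and 255 CPM at 0, 1, 3 and 5 courses, and ATR, which answers to stalled forks, had 41.6, 21.2, 36.8 and 42.8 CPM. ATM was the 1 repair gene at least 1.5-fold higher in course 1 (12.5% of all genes of at least 5 CPM were), at a log2 ratio of 0.74 (0.71 to 0.77), and ATR stood there at -0.97 (-1.08 to -0.86). By course 5 both were close to parental, at 0.11 (0.07 to 0.14) for ATM and 0.04 (-0.04 to 0.13) for ATR. CHEK1, the kinase under ATR, had 36.7, 22.7, 29.9 and 30.8 CPM at 0, 1, 3 and 5 courses, and STT3A, at 183 to 198 CPM, overlaps it on the same strand. CHEK2, the kinase under ATM, had 29.9, 34.1, 24.1 and 20.0 CPM and was below parental only in the late courses, at -0.31 and -0.58. The edgeR pooled log2 fold changes were 0.37 (SE 0.34) for ATM, -0.31 (SE 0.43) for ATR and -0.40 (SE 0.27) for CHEK1, with adjusted p of 0.977, 0.996 and 0.955.

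**Figure D4:**
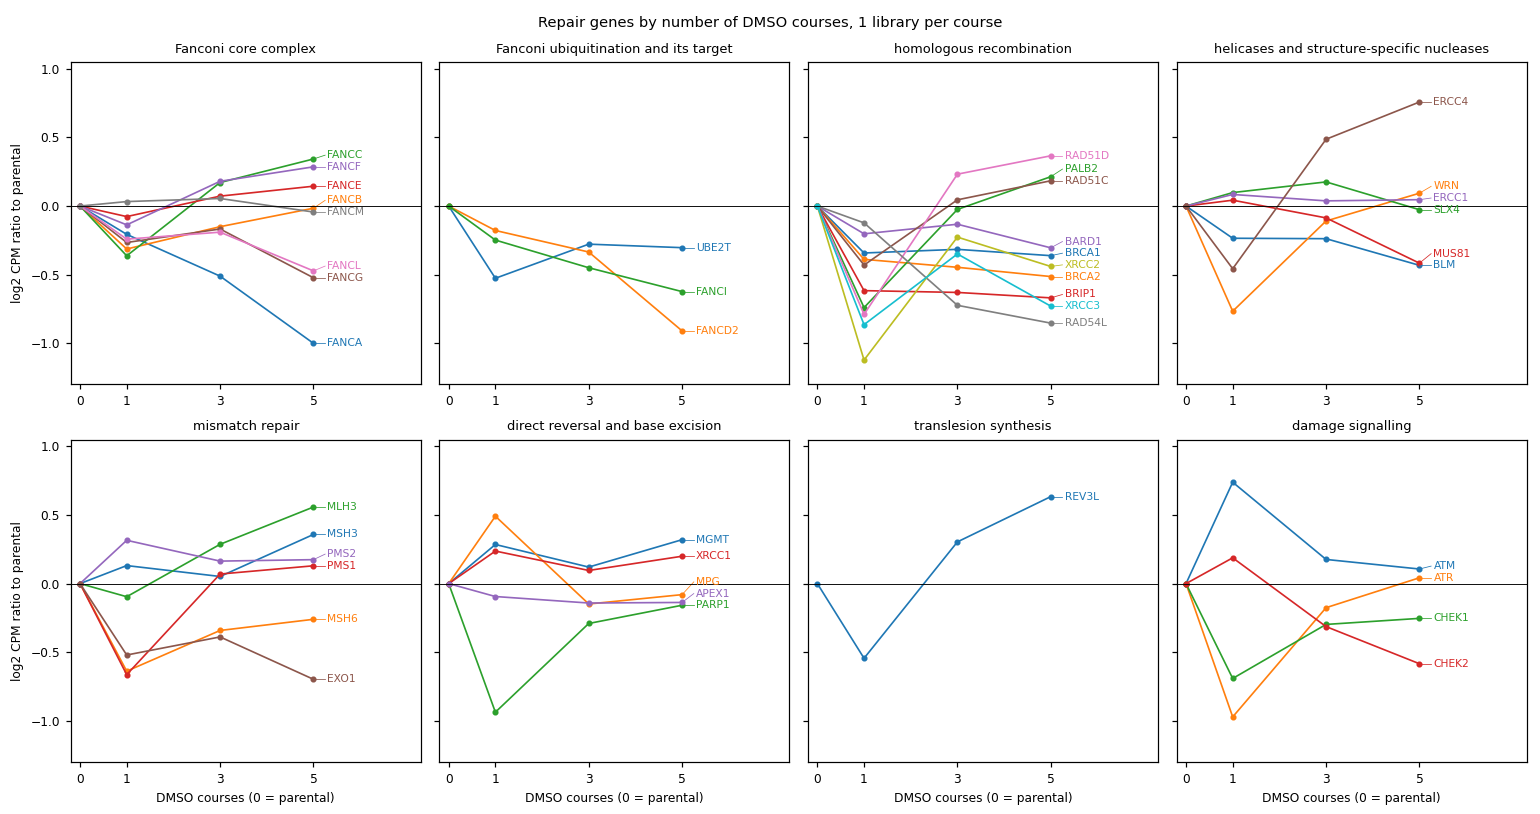
Log2 ratio of CPM to the parental library against the number of DMSO courses (0 is parental) for the 43 repair genes, in 1 panel per group and with 1 library per point. FANCA, FANCD2 and RAD54L end lowest in course 5, at -1.0, -0.91 and -0.85, and XRCC2, ATR and PARP1 are lowest in course 1.

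Courses 1 and 5 were also compared by the genes farthest from parental. In course 1, 11 of the 42 genes were at least 1.5-fold below parental (26.2%, against 14.1% of all genes of at least 5 CPM), 5 of them in recombination. In course 5, 7 of the 42 were (16.7%, against 12.2%), and these were FANCA, FANCD2, FANCI, BRIP1, RAD54L, XRCC3 and EXO1. BRIP1 and XRCC3 were as far below parental in course 1 too, but the share of all genes low in both courses was not counted. Set against course 1 directly, course 5 held 12 repair genes at least 1.5-fold higher (19.3% of all genes of that level were) and 5 lower, FANCA, FANCD2, RAD54L, ATM and CHEK2 (18.7% of all were). RAD51D, ERCC4, REV3L and ATR were at least 2-fold higher in course 5 (7.14% of all genes were), at log2 ratios to course 1 of 1.16, 1.21, 1.18 and 1.01, and none was 2-fold lower (9.08% of all were). On opposite sides of parental lay 9 genes below it in course 1 and above it in course 5 (16.7% of all genes did so) and 2, MPG and CHEK2, the other way round (17.0% of all did). Between courses 5 and 3 no repair gene was 1.5-fold apart in either direction, where 4.29% of all genes were lower in course 5 and 0.784% higher. FANCD2 at -0.57 and FANCA at -0.49 were the farthest below course 3, and REV3L at 0.33 the farthest above.

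Replication and mitosis genes were read beside the repair genes, since both follow the cell cycle. The median log2 ratio to parental of the 43 genes was -0.25, -0.14 and -0.08 in courses 1, 3 and 5, while that of all 18612 genes tested lay at 0.005, -0.002 and -0.009. Of the replication genes, such as the MCM helicase subunits, 22 of 27 were lower in all 3 DMSO libraries (15.2% of all genes of at least 5 CPM were), with medians of -0.89, -0.43 and -0.55 in courses 1, 3 and 5. CDC6, MCM10 and CDC45 had the lowest pooled log2 fold changes of that list, at -1.04, -0.97 and -0.94. Of the mitosis genes, 19 of 24 were lower in all 3, against the same 15.2%, with medians of -0.23, -0.53 and -0.74, and BUB1B, CCNB1 and CCNA2 led at -0.73, -0.69 and -0.68. The recombination genes had medians of -0.52, -0.27 and -0.40, and the ubiquitination genes had medians of -0.25, -0.34 and -0.62. No gene of these lists passed the edgeR test. In its slope fit 17 of 24 mitosis genes and 3 of 27 replication genes had an unadjusted p under 0.05 (2940 of all 18612 genes did). In its pooled fit the replication list held a larger share of such genes than the mitosis list or all genes. The part of replication and division in the repair genes' levels was not tested.

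The 13 repair genes known to be transcribed at the G1/S boundary in human cells (BRCA1, BRCA2, BARD1, BRIP1, FANCA, FANCD2, FANCI, UBE2T, RAD54L, XRCC2, BLM, EXO1 and CHEK1) were all lower in the 3 DMSO libraries, beside 15.2% of all genes of at least 5 CPM. Their medians were -0.34, -0.34 and -0.51 in courses 1, 3 and 5, against -0.19, 0.05 and 0.10 for the other 30. That list was written with results of these libraries known, so the split is a description.

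**Figure D5:**
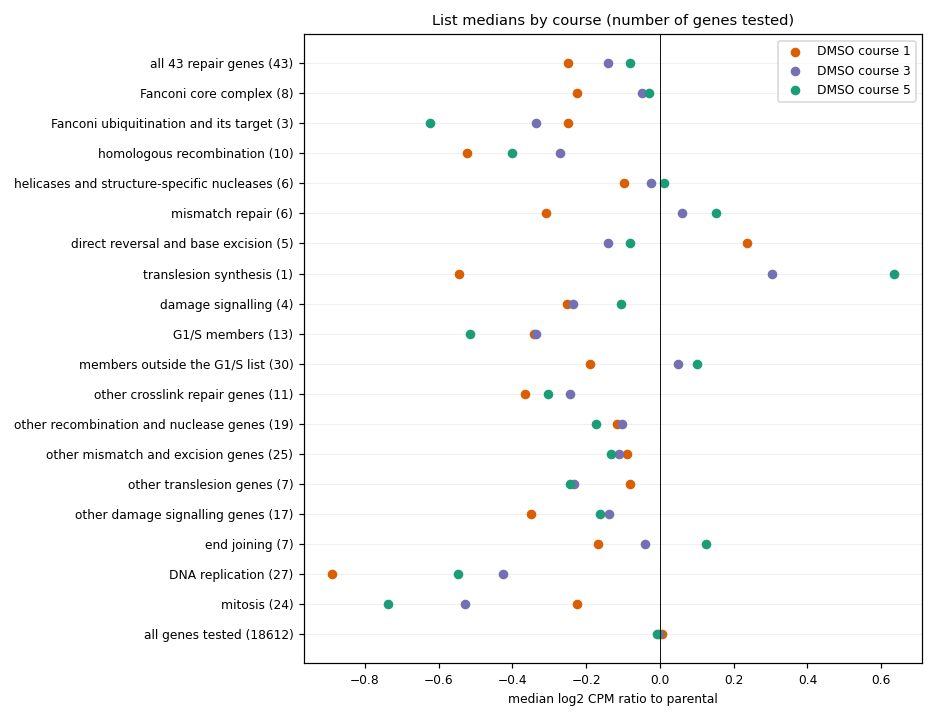
Median log2 ratio of CPM to the parental library in each DMSO course for the repair groups, for further genes of the same pathways and for replication and mitosis genes, with the number of genes tested. The replication median is lowest in course 1 (-0.89), the mitosis median in course 5 (-0.74), and all genes lie near 0.

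Further genes of the same pathways were read from lists of their own, against 15.2% of all genes of at least 5 CPM lower and 18.6% higher in all 3 DMSO libraries. Of 9 other crosslink repair genes of at least 5 CPM, 6 were lower in all 3 DMSO libraries and 0 higher, led by CENPX, a DNA-binding partner of FANCM, at 33.0, 19.1, 20.4 and 17.9 CPM at 0, 1, 3 and 5 courses. UHRF1 and FAAP100 were the next by fold change. Of 16 other recombination and nuclease genes, 5 were lower in all 3 and 0 higher. GEN1, a resolvase, stood at 52.2, 41.3, 39.0 and 29.4 CPM, and RAD52, which anneals single strands, at 18.7, 36.3, 23.6 and 19.8 CPM. Of 25 other mismatch and excision genes, 5 were lower in all 3 (20.0%, near the share of all genes) and 2 higher. The flap nuclease gene FEN1 had 61.6, 27.4, 34.6 and 32.4 CPM at 0, 1, 3 and 5 courses, and the clamp gene PCNA had 208, 101, 134 and 148 CPM. Of 7 other translesion genes, 3 were lower in all 3 and 2 higher. POLH, a polymerase that copies past damaged bases, stood at 28.8, 35.4, 39.6 and 48.2 CPM, and RAD18, a ligase that marks the clamp, at 28.7, 23.6, 21.2 and 19.1 CPM. Of 16 other signalling genes, 7 were lower in all 3 and 1 higher, led by CLSPN, at 29.1, 10.6, 20.3 and 20.3 CPM. No gene of these lists passed the edgeR test, in which the smallest adjusted p was 0.609, for FEN1.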

How the data were processed

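Bulk RNA of MOLM-13 cells was made into libraries with a TruSeq kit, per the labels' protocols. The authors deposited unnormalized read counts for each Ensembl gene ID. The submitters' processing notes name FastQC 0.11.5, TopHat2 2.0.11, HTSeq 0.6p1 and hg19. All 58735 IDs are in GENCODE release 29, an annotation of GRCh38, so it is unsure which build was used. HTSeq summary rows, 24.6% to 29.8% of reads, entered neither library sizes nor tests. Reads that fit several places are in no gene, so genes with near copies are uncertain, and the setting for strand is known only from the files' names.

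The tools were edgeR 4.0.16 (quasi-likelihood test, TMM scaling, filterByExpr with a minimum count of 10 and a minimum total of 15, Benjamini-Hochberg threshold 0.05), limma 3.58.1 and DESeq2 1.42.0 in R 4.3.3. All 43 repair genes were among the 18612 genes tested. The pooled and slope fits had 2 residual degrees of freedom. The pooled fit takes its spread from the DMSO libraries alone and lends it to the parental one, and nothing in the labels makes these libraries replicates, so p-values measure only the spread between them. Single libraries were compared by exact binomial (Clopper-Pearson) 95% intervals on genes of at least 5 CPM. Each state is a single library, so the intervals hold counting error only. Reads carry no molecular identifiers, so copies of a read count as separate reads and the intervals may be too narrow even for that error. TPM used the joined length of all GENCODE exons of a gene and no TMM scaling. Functions were tested on simulated counts. Genes were named in full as the 3 of each group with the largest pooled fold change. The members and lists were chosen with earlier results of these data known. Alternatives covered the tool, the scaling, the filter on low counts, the fold, the time scale and each library left out.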

Additional observations from a re-analysis of the deposited data

Results flagged for a closer look

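For 11 repair genes the DMSO libraries of course 1 and course 5 lay on opposite sides of parental cells, both with counting intervals that left out a ratio of 1. In 9 of them course 1 was below and course 5 above parental. The difference between the log2 ratios, course 5 minus course 1, was 1.21 for ERCC4, 1.18 for REV3L, 1.16 for RAD51D and 0.95 for PALB2. It was 0.86 for WRN, 0.79 for PMS1, 0.71 for FANCC, 0.61 for RAD51C and 0.42 for FANCF. The order was the opposite in MPG, at -0.57, and in CHEK2, at -0.77. Among all genes of at least 5 CPM, 16.7% shared the first pattern and 17.0% the second. Lying on opposite sides of parental cells was thus no more common among the 42 repair genes of that level than among all genes. Each side is 1 library, so these differences were not tested.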

How the results depend on the processing

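The libraries have no replicate at their own course, so every result rests on single cultures. No paired analysis was possible because each group compared holds 1 library, so no groups share 2 replicate numbers, and the number 1 of the DMSO libraries was given in accession order. DESeq2's Wald test called 211 genes in the pooled comparison, and 880 genes with 1 repair gene for the slope, where edgeR called 0. Without a filter on low counts edgeR called 13 and 132 genes, none of them a repair gene. Leaving out 1 library at a time gave 25 to 1578 genes and 0 to 1 repair genes in the pooled comparison, and 5 to 3642 genes and 0 to 11 repair genes for the slope. The pooled comparison has no value without the parental library. Library totals with no TMM scaling moved the median ratio of all genes by -0.11 log2 in course 1. Under them 3 repair genes, in place of 1, were at least 2-fold lower in course 1, 1 in place of 3 was higher in all 3 DMSO libraries, and the mean over courses of the median ratio of the helicases and nucleases was -0.11, in place of -0.04. RLE scaling left 0 repair genes 2-fold lower in course 5, in place of 1. At 1.5-fold in place of 2-fold, 11, 2 and 7 repair genes were lower in courses 1, 3 and 5, and 1 and 2 were higher in courses 1 and 5. Repair genes higher in every DMSO library used numbered 4 to 9 when 1 such library was left out. A rule on fewer libraries can only keep or raise this count. Without course 1 it held 9 of the 42 repair genes, against 33.7% of all genes of at least 5 CPM. The shares of all genes without course 3 or course 5 were not counted. REV3L, at a pooled log2 fold change of 0.21, ran from -0.060 without course 5 to 0.48 without course 1. The cause of these changes was not tested. The mean over courses of a group's median ratio changed sign within the spread between libraries in 3 groups. It was -0.032 for mismatch repair and 0.11 without course 1, 0.005 for direct reversal and base excision, -0.073 on library totals and -0.11 without course 1, and 0.13 for translesion synthesis and -0.12 without course 5. The 219 other values of single genes kept their direction and side of the threshold, and the other counts and group medians stayed within 1.5 times for counts or within that spread for medians.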

Other observations

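End joining, which rejoins broken ends without a template, was low in course 1. All 6 of its measured genes of at least 5 CPM had their lowest level there, a place that 35.9% of all genes of that level shared. PRKDC, the kinase subunit, had 763, 409, 692 and 905 CPM at 0, 1, 3 and 5 courses. XRCC6, a subunit of the ring that holds the ends, had 286, 175, 221 and 267 CPM and was the 1 gene of the list below parental in all 3 DMSO libraries. LIG4, the ligase, had 39.5, 36.3, 53.7 and 54.4 CPM. The median log2 ratio of the list was -0.17, -0.04 and 0.13 in courses 1, 3 and 5, and no gene of it passed the edgeR test.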
